A study of Homo sapiens with 2 samples.

Results

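The genes described here encode the chaperones of the endoplasmic reticulum (ER) and the unfolded protein response, taken from a list of 38 symbols. All probe sets of the array that are assigned to 1 of these genes alone were used, which gave 84 probe sets for 37 of the 38 genes, out of 41091 such probe sets for 19775 genes on the array. SYVN1 had no probe set assigned to it alone and is not described further. The genes were divided by role into 15 chaperones and disulfide isomerases, 5 sensors with their transcription factors, 9 genes of the ATF4 branch, and 9 genes of degradation, translocation and transport, SYVN1 among these 9.

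The ER folds secreted and membrane proteins with the help of chaperones and of enzymes that form and exchange disulfide bonds. When unfolded proteins accumulate, 3 sensors in the ER membrane, encoded by ERN1, EIF2AK3 and ATF6, start the unfolded protein response. The ERN1 product splices the XBP1 mRNA, the EIF2AK3 product PERK slows translation and favours translation of ATF4, and ATF6 is cleaved to release a transcription factor. The targets of these branches are chaperones, genes of ER-associated degradation, and genes of amino acid supply and of cell death. In megakaryocytes and platelets, disulfide isomerases are also known from the cell surface, where they act on integrins.

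The samples were MEG-01 cells, a megakaryoblastic line from chronic myeloid leukemia (CML) in blast crisis, that carry BCR-ABL. Control cells were transduced with a lentivirus that expresses the yellow fluorescent protein Venus, and the others with a lentivirus for GAS2DN, the dominant negative form of GAS2, a truncated GAS2 known to release calpain from inhibition, here expressed together with Venus from a spleen focus forming virus promoter. Cells of both kinds grew in RPMI1640 with serum and were purified by sorting for fluorescence. RNA from 3 extracts per condition was pooled in equal amounts and hybridised to 1 Human U133 Plus 2.0 array per condition, so there is 1 value per condition, with no replicate, no test and no p-value. The comparison asks whether GAS2DN went with another level of the ER folding machinery.

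GAS2, the targeted gene, had signals of 24.3 in Venus and 34.7 in GAS2DN cells, under the array medians of 55.6 and 69.1, and where its probe set lies relative to the part that GAS2DN lacks is not given in the sources used here. Of 8 megakaryocyte markers 7 reached the median on both arrays, among them the integrin subunit gene ITGA2B with 7149 and 9238, while PF4 was below it with 40.8 and 25.9. The summed megakaryocyte signal, in which the brightest probe sets weigh most, was 22127 in Venus and 26458 in GAS2DN cells. By gene, PF4 and GATA1, the latter with 1617 and 1516, were lower in GAS2DN cells and the other markers higher. Markers of T cells, monocytes and epithelial cells were below the median on both arrays. The B-cell marker CD79A had 159 and 185, and of the fibroblast markers COL1A1 was below the median on both arrays and COL1A2 had 41.0 and 111. Their part in the results was not tested, and fewer cells with a transcript cannot be told apart from less transcript per cell.

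Eligible probe sets were those whose brighter signal reached the median of its array. Each gene was represented by its main probe set, that of highest signal averaged over both arrays on the log2 scale, and probe sets ending in _x_at, which can cross-hybridise, served only where a gene had no other. The main probe sets of all 37 genes reached the median on both arrays, and in 31 of them both signals also reached percentile 75. The filter therefore removed no member, only 10 of the 84 probe sets. Differences are log2 signals of GAS2DN minus Venus. They are set beside 2 backgrounds, the 13086 genes with an eligible main probe set (all measured genes) and the 7433 of these with both signals at or above percentile 75 (bright genes).

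No member was over 2-fold higher in GAS2DN cells and none was over 2-fold lower by its main probe set, where 7.91% of all measured genes were over 2-fold higher and 4.45% lower. Among bright genes, which share the range of most members, these shares were 0.0673% and 0.753%. No member had an eligible probe set over 3-fold in either direction. Of 13342 genes 8.36% had one higher and none lower, and 5.76% had one lower and none higher. These shares include genes that reached the median on 1 array alone. Few bright genes were over even 2-fold, so the lack of such members is not particular to this list. The 3-fold threshold is that of the study, while the filter and the rule for a gene were set here. Over 1.5-fold, a threshold added after the values were seen, were PPP1R15A in the higher direction and EIF2AK3 and SEC24D in the lower. The backgrounds for 1.5-fold were 14.3% higher and 9.12% lower of all measured genes, and 1.74% and 3.55% of bright genes. PPP1R15A and SEC24D were not among the bright genes, so the bright shares apply to EIF2AK3 alone. The median log2 difference was 0.09 over the 37 members, 0.06 over all measured genes and 0.02 over bright genes. A log2 difference above 0 was found in 24 of 37 members (64.9%), in 56.2% of all measured genes and in 53.5% of bright genes. This count depended on the processing. After median centring 19 of 37 members were above 0, with a median of 0.03, beside 49.8% of all measured genes. With the median over all eligible probe sets of a gene 20 of 37 were above 0, with a median of 0.03, beside 56.0% of 13342 genes.

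**Figure D1:**
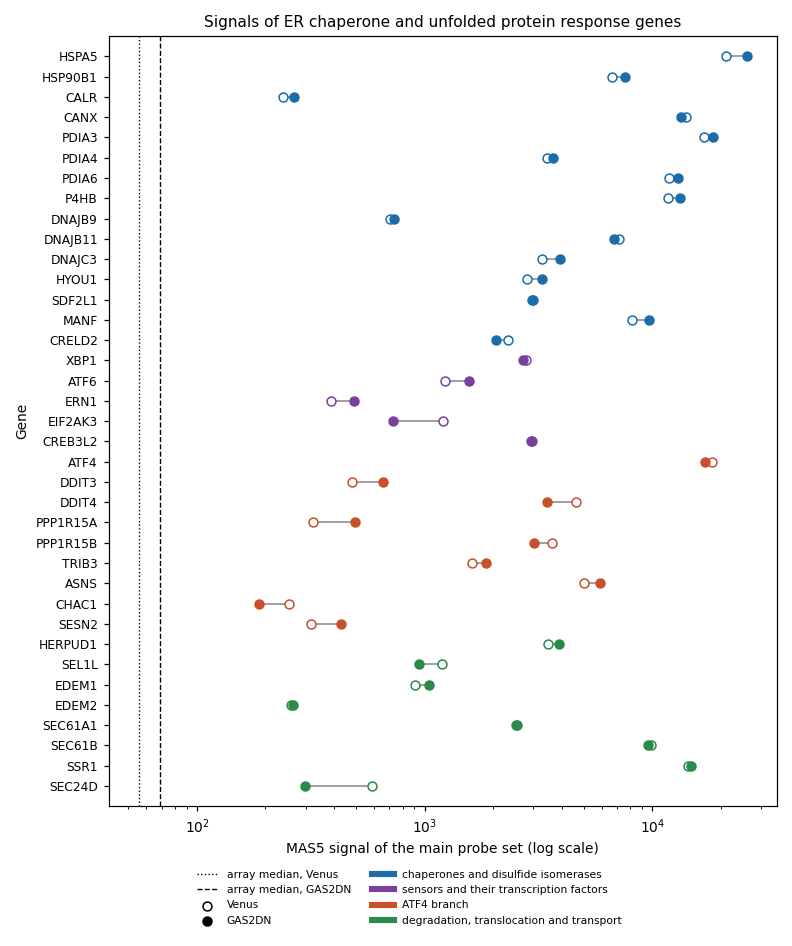
MAS5 signals of the main probe set of 37 genes on a log axis, with open circles for Venus and filled circles for GAS2DN, coloured by role, and vertical lines at the 2 array medians of 55.6 and 69.1. All points lie to the right of both lines and the widest gap is that of SEC24D, from 589 to 299. Signals of different probe sets are not comparable as levels.

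A gene read by several probe sets was measured more than once on the same arrays, which is no replicate of a condition. Between eligible probe sets of the same member the pooled SD of the log2 difference was 0.32, from 56 probe sets of 19 members. It was 0.29 for probe sets of any gene with both signals at or above percentile 75 and 0.83 over all eligible ones. By their main probe set 10 of 37 members lay further from 0 than 0.32, as did 42.5% of all measured genes and 22.2% of bright genes. All eligible probe sets were above 0 in 7 of the 19 members and all below 0 in none, while the other 12 had probe sets on both sides. One side of 0 thus held all probe sets in 36.8% of these members and in 39.4% of the 6422 genes with at least 2 eligible probe sets. ERN1 is counted among the 7 with a probe set that reached the median on the GAS2DN array alone.

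**Figure D2:**
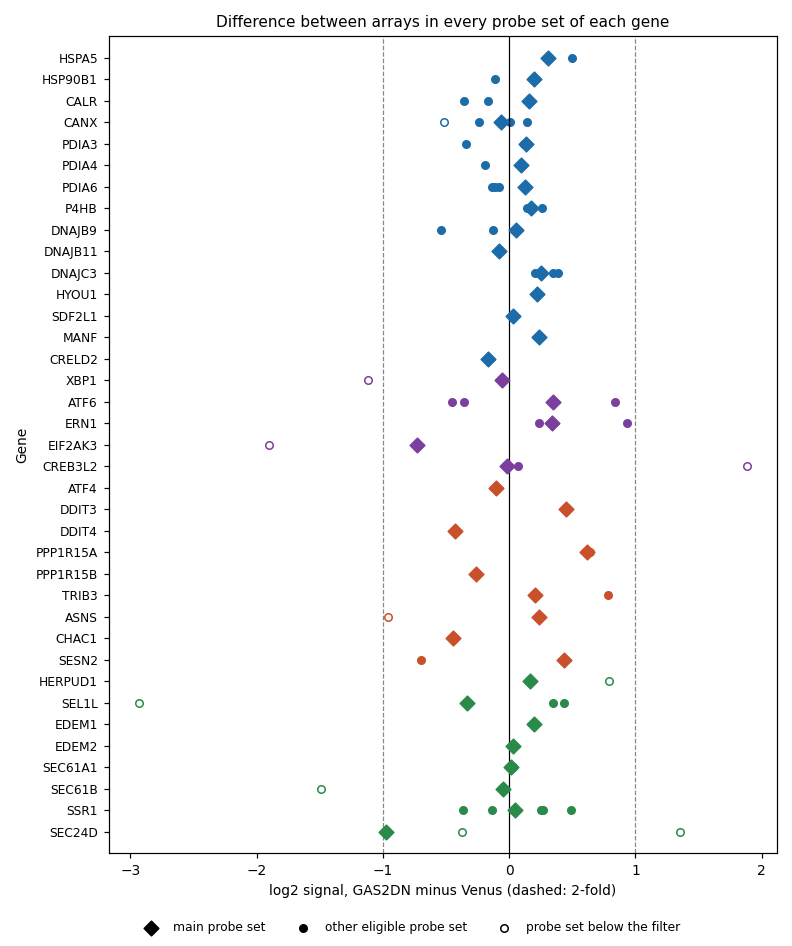
Log2 difference of GAS2DN minus Venus in each of the 84 probe sets, 1 row per gene, with diamonds for main probe sets, filled circles for other eligible ones and open circles for those below the filter, and dashed lines at 2-fold. Every filled symbol lies inside the dashed lines, and 6 of 10 open circles lie outside.

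The chaperones and disulfide isomerases formed the narrowest group. Their 15 main probe sets ran from -0.17 to 0.31 on the log2 scale, with an SD of 0.14, where bright genes had 0.30. Genes of translocation and glycosylation, from the further list described below, had an SD of 0.18. Neither comparison was matched for signal. Of the 15 chaperones and isomerases 12 had a difference above 0 and 3 had one below 0, and the median was 0.13. With the median over all eligible probe sets in place of the main one, 8 of 15 were above 0 and the group median was 0.03. By the second-brightest eligible probe set, available for 10 of the genes, 5 were above 0. The lean of the main probe sets towards higher signals was thus not shared by the other probe sets of these genes.

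HSPA5 encodes BiP, the ER member of the HSP70 family that binds unfolded chains and holds the sensors inactive. Its main probe set had 21072 in Venus and 26038 in GAS2DN cells, which gave a ratio of 1.24 and a log2 difference of 0.31. Its second probe set had 876 and 1238, a difference of 0.50, so that both were higher on the GAS2DN array. Among all 240 measured genes with a mean log2 signal over 14, as that of the main HSPA5 probe set, the median difference was 0.15. The difference of this probe set was 0.19 after loess and 0.16 after quantile normalization, scalings that take such a shift out. HYOU1, a large HSP70 relative that exchanges nucleotides on BiP, had 2820 and 3286, a difference of 0.22. DNAJC3, a J-domain co-chaperone of BiP, had 3293 and 3929, a difference of 0.25 (0.26 after loess). Its other 3 probe sets had 0.35, 0.21 and 0.39, so all 4 were higher with GAS2DN. The J-domain co-chaperones DNAJB11, with 7161 and 6771, and DNAJB9, with 706 and 732, had -0.08 and 0.05, and the other probe sets of DNAJB9 had -0.13 and -0.54. SDF2L1, which works with BiP and J proteins, had 2954 and 3010.0, a difference of 0.03. Within the BiP system HSPA5 and DNAJC3 were therefore higher in each of their probe sets, and DNAJB9 had values on both sides of 0.

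HSP90B1 encodes GRP94, the HSP90 of the ER. Its main probe set had 6663 and 7628, a difference of 0.20, and a dimmer one had 310.2 and 286, a difference of -0.11. Both of these end in _x_at. MANF, a secreted factor induced by ER stress, had 8188 and 9658, a difference of 0.24. CRELD2, also a secreted ER stress protein, had 2315 and 2058, a difference of -0.17. For MANF and CRELD2 only 1 probe set each was read, and they lay on opposite sides of 0 by less than the spread between probe sets.

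CANX and CALR encode calnexin and calreticulin, the lectin chaperones that hold glycoproteins during folding. CANX had 14103 and 13451, a difference of -0.07, and its other eligible probe sets had 0.01, -0.24 and 0.14. The main probe set of CALR had 239 and 267, a difference of 0.16. The other 2 probe sets of CALR end in _x_at and were brighter, with 3794 and 2965, a difference of -0.36, and 2475 and 2202, a difference of -0.17. The sign for CALR thus depends on which probe set is read, and with the brightest one it was -0.36.

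The disulfide isomerases were close to equal on the arrays. PDIA3, which works with calnexin and calreticulin, had 16814 and 18436, a difference of 0.13, and its other probe sets 0.12 and -0.34. P4HB, the classical protein disulfide isomerase, had 11735 and 13193, a difference of 0.17, with 0.14 and 0.26 in its others, so all 3 were higher with GAS2DN. PDIA6 had 11858 and 12934, a difference of 0.13, but its other 3 probe sets had -0.14, -0.12 and -0.08. PDIA4 had 3449 and 3674, a difference of 0.09, and -0.19 in its second. Of the 4 isomerases only P4HB had all probe sets on 1 side of 0. After loess the main probe sets had 0.04 for PDIA3, 0.10 for P4HB, 0.06 for PDIA6 and 0.10 for PDIA4.

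Some of these genes carry ER stress response elements (ERSE) in their promoters, the sites to which the ATF6 and XBP1 proteins bind together with NF-Y. RefSeq start sites of build GRCh38.p14 gave windows from 250 bases before to 50 bases after the start for 36 of the 38 genes, all but SEC24D and PDIA3. Both strands were searched for 3 motifs, ERSE (CCAAT and CCACG with 9 bases between them), ERSE-II (ATTGG and CCACG with 1 base between them) and the CARE to which ATF4 with C/EBP proteins binds (TGATG and AA with 1 base between them). The 17 sites found in 14 members did not overlap each other. ERSE was present in 7 of the 36 genes (19.4%), against 0.0916% of all 27305 genes and 0.0769% of all 35116 windows. The list holds genes known to respond to ER stress, so these shares describe the list and are no result of the arrays. The sites are shown to give the shared letters of the genes described above, in the 5′ to 3′ direction of the motif, with the fixed letters in capitals.
HSPA5: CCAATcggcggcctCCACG
HSP90B1, first site: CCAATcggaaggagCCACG
HSP90B1, second site: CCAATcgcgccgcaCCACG
CALR: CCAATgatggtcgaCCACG
CANX: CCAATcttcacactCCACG
PDIA6: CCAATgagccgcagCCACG
CRELD2: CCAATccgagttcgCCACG
XBP1: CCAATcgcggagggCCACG
The HSPA5 site lay 48 to 66 bases before the start and that of XBP1 34 to 52 bases before it, both on the strand of the gene. The sites of CALR, 207 to 225 bases before the start, and of CRELD2, 62 to 80 bases before it, were on the opposite strand.

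The shorter ERSE-II was found in HYOU1, HERPUD1 and SDF2L1, 3 of 36 genes (8.33%) against 0.0696% of all genes. In HYOU1 it occurred at 2 places with the same letters.
HYOU1: ATTGGaCCACG
HERPUD1: ATTGGgCCACG
SDF2L1: ATTGGtCCACG
The 10 genes with ERSE or ERSE-II had log2 differences from -0.17 to 0.31, with a median of 0.14 and 7 of 10 above 0. The 25 other measured genes with a promoter sequence had a median of 0.05, with 16 of 25 above 0. The range of the genes with an element lay within that of the genes without one. All these values are of main probe sets, and the sign depends on that choice for some genes with an element. By the median over eligible probe sets CALR had -0.17 and PDIA6 -0.10, both below 0, while HSPA5 had 0.40. No lean of the genes with an element can therefore be read from these medians. The promoters of HSPA5 and HSP90B1 are shown for their context, with 250 bases up to the start in the direction of the gene and the fixed letters of ERSE, on either strand, in capitals. HSPA5 lies on the minus strand, at chr9:125241344-125241593, and HSP90B1 on the plus strand, at chr12:103930160-103930409.
HSPA5 promoter: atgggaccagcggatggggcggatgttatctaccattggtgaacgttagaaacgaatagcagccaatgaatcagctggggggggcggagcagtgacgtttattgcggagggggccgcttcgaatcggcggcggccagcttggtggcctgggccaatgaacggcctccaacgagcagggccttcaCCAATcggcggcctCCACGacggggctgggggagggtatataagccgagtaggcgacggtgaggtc
HSP90B1 promoter: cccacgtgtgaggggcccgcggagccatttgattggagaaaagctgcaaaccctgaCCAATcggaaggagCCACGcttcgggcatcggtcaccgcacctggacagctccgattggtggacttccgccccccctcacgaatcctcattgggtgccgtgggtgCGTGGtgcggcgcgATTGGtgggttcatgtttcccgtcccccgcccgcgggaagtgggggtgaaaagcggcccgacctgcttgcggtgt

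The sensors and their transcription factors included the lowest value of the stress signalling genes. EIF2AK3, which encodes the kinase PERK, had 1204 in Venus and 727 in GAS2DN cells, which gave a ratio of 0.604 and a log2 difference of -0.73. It was -0.70 to -0.79 under the 3 other scalings. Only 1 eligible probe set read EIF2AK3, since its other one had signals of 4.72 and 1.27. ERN1, which encodes the kinase and RNase IRE1, had 388 and 490, a difference of 0.34. Its other 2 probe sets had 0.23 and 0.93, the latter from 53.5 to 102. That last probe set reached the median on the GAS2DN array alone, so the filter kept it through the array where it was higher. ATF6 had 1227 and 1562, a difference of 0.35, but its other 3 probe sets had -0.35, -0.45 and 0.84, and the median of the 4 was -0.0035. XBP1 had 2802 and 2699, a difference of -0.05. Spliced and unspliced XBP1 mRNA were not told apart by this signal. CREB3L2, a membrane-bound factor cleaved in the same way as ATF6, had 2962 and 2933, a difference of -0.01, and 0.07 in its other eligible probe set. Of the 3 sensors, EIF2AK3 was lower and ATF6 had values on both sides. ERN1 was higher in the probe sets that reached the median on both arrays. The group median was -0.01.

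In the ATF4 branch 5 of 9 genes had a difference above 0 and 4 below 0, with a median of 0.21 and an SD of 0.40 among them. The range of -0.45 to 0.62 was wider than that of the chaperones, though these groups were not matched for signal. With the median over all eligible probe sets the group median was -0.11, with 4 of 9 above 0, so no direction can be given for this group. ATF4 itself, the transcription factor whose translation PERK favours, had 18385 and 17093, a difference of -0.11. It was -0.17 after quantile normalization and -0.20 after loess.

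PPP1R15A had the highest difference of all members by the main probe set. It encodes GADD34, which brings a phosphatase to eIF2-alpha and so restores translation. Its main probe set had 323 in Venus and 495 in GAS2DN cells, which gave a ratio of 1.53 and a difference of 0.62, and its second probe set had 232 and 362, a difference of 0.64. The 2 probe sets differed from each other by 0.02, and both lay further from 0 than the SD of 0.32 between probe sets. That SD is no error between replicates, and 42.5% of all measured genes lay further from 0 than it. PPP1R15B, its constitutive counterpart, had 3646 and 3037, a difference of -0.26. DDIT3, which encodes the stress transcription factor CHOP, had 481 and 657, a difference of 0.45. TRIB3, a pseudokinase induced by CHOP and ATF4, had 1621 and 1871, a difference of 0.21, and 0.78 in its other probe set, from 108 to 186.

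The other genes of this branch did not follow one direction. SESN2, a stress-induced inhibitor of mTORC1, had 318 and 428, a difference of 0.43, but its second probe set had 233 and 143, a difference of -0.70. DDIT4, another inhibitor of mTORC1, had 4628 and 3441, a difference of -0.43. CHAC1, which degrades glutathione, had 254 and 187, a difference of -0.45, and both of these genes were read by 1 probe set each. ASNS, the asparagine synthetase, had 5014 and 5903, a difference of 0.24. The CARE motif was found in ASNS, CHAC1, PPP1R15B, HERPUD1 and CREB3L2, 5 of 36 genes (13.9%) against 4.46% of all genes. These 5 genes had a median of -0.01, with 2 of 5 above 0. The site of ASNS, TGATGaAA, lay 61 to 68 bases before the start, and that of CHAC1, TGATGcAA on the opposite strand, 202 to 209 bases before it, and ASNS had a value above 0 and CHAC1 below.

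**Figure D3:**
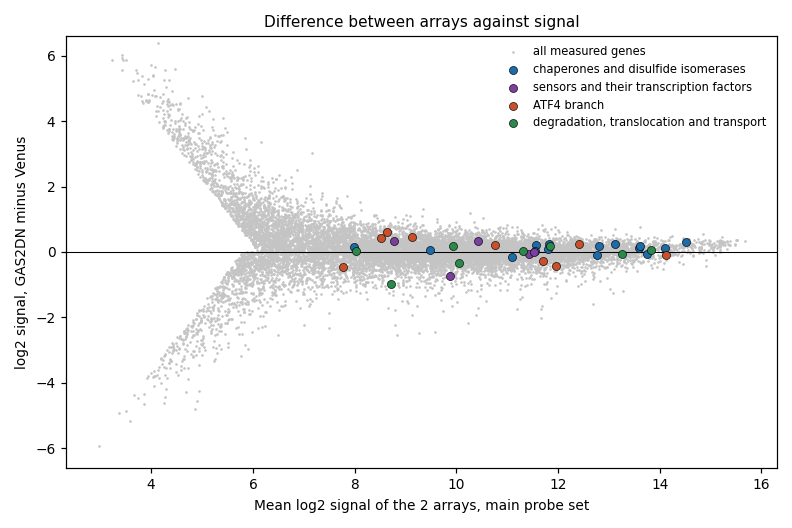
Log2 difference of GAS2DN minus Venus against the mean log2 signal of the 2 arrays for the main probe sets of 13086 measured genes in grey, with the 37 members coloured by role. The grey cloud widens towards dim signals, members lie in its narrow part, and the 2 lowest coloured points are SEC24D at -0.98 and EIF2AK3 at -0.73.

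Among genes of degradation, translocation and transport SEC24D stood lowest. It encodes a cargo adaptor of the COPII coat that carries proteins from the ER to the Golgi. Its main probe set had 589 in Venus and 299 in GAS2DN cells, which gave a ratio of 0.508 and a log2 difference of -0.98, just inside 2-fold. It passed 2-fold after median centring, with -1.03. SEC24D had no other eligible probe set, and its 2 dim ones had 1.35, from 25.8 to 65.8, and -0.37, from 27.4 to 21.1.

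The rest of the group was near equal signals, with a median of 0.02 over 8 genes. HERPUD1, a stress-induced membrane protein of the degradation complex, had 3470 and 3894, a difference of 0.17. SEL1L, the adaptor of the ubiquitin ligase, had 1192 and 945, a difference of -0.34, but 0.34 and 0.43 in its other eligible probe sets. EDEM1 and EDEM2, which mark misfolded glycoproteins for degradation, had 909 and 1041, a difference of 0.19, and 259 and 265, a difference of 0.03. The channel subunits SEC61A1, with 2514 and 2539, and SEC61B, with 9898 and 9565, had 0.01 and -0.05. SSR1, a subunit of the translocon-associated complex, had 14315 and 14821, a difference of 0.05, and its 5 other probe sets ran from -0.37 to 0.49. The median of this group lay below 0 under each of the 3 other scalings, where that of all measured genes moved by less than 0.1.

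A further list of 95 genes of the same pathway, which are no members, was read in the same way. Of these 89 had a probe set of their own and 86 were measured. A main probe set over 2-fold higher was found for 1 of the 86 and over 2-fold lower for 3, and the median was 0.03 with 50 above 0. Folding genes were above 0 in 16 of 22 with a median of 0.10. Genes of translocation and glycosylation were above 0 in 11 of 17, with a median of 0.07 and a range of -0.25 to 0.35. Degradation genes were above 0 in 8 of 13, sensors with their processing enzymes in 6 of 11, and transport genes in 6 of 10, with medians of 0.03, 0.09 and 0.01. Of 15 targets of ATF4 and CHOP with a probe set 13 were measured. Of these 3 of 13 (23.1%) were above 0, with a median of -0.13, where 56.2% of all measured genes were above 0. The count is of main probe sets alone, and other eligible probe sets of these targets lay on both sides of 0. Of the values below 0 those nearest to it were -0.01 and -0.03. The targets that were not measured had 1.33 and 2.49, at dim signals. No direction is therefore given for this list. The medians of the other lists ran from 0.01 to 0.10. Over all members the median was 0.09, with 0.13 in the chaperones and isomerases and 0.21 in the ATF4 branch.

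Among genes of the further list that reached the array median in both cells, the 3 highest were CREB3, DERL3 and MBTPS2. CREB3 is an ER-membrane transcription factor, DERL3 a Derlin of ER-associated degradation, and MBTPS2 one of the proteases that cleave ATF6. CREB3 had 240 and 434, a difference of 0.86. DERL3 had 101 and 154, a difference of 0.61, but -1.24 in another eligible probe set, from 93.2 to 39.4. MBTPS2 had 939 and 1420.2, a difference of 0.60, and 0.84 in its other eligible probe set, from 43.5 to 77.6. Both of these other probe sets reached the median on 1 array alone, the one where they were higher. The 3 lowest were SEC23B, SLC7A11 and MOGS. SEC23B, the COPII subunit that pairs with SEC24 proteins, had 3809 and 1885, a difference of -1.01, though 0.21 and -0.14 in its other probe sets. SLC7A11, the cystine transporter, had 1971 and 1159, a difference of -0.77, with -0.20 and 0.32 in its others. MOGS, the glucosidase that starts the trimming of glycans, had 561 and 366, a difference of -0.62. For SEC23B and SLC7A11 the other probe sets lay nearer to 0 than the main one or on its other side.

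**Figure D4:**
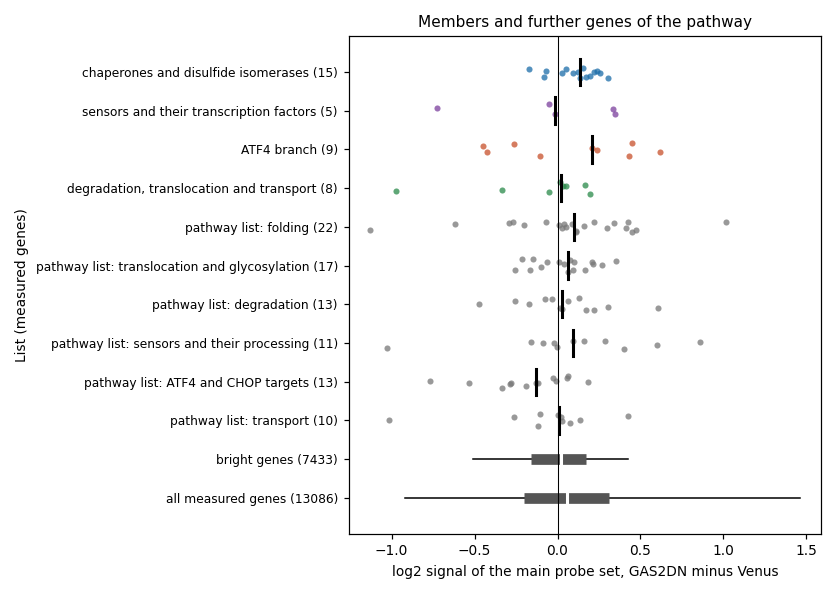
Log2 difference of GAS2DN minus Venus of the main probe set of each measured gene (points) and the median (black bars) for the 4 groups of members and for 6 further lists of the pathway, with the number of genes in brackets. For bright and all measured genes the thick bar spans the quartiles, the thin line the 5th to 95th percentile and the white gap is the median, and the chaperone points span less than the thin line of the bright genes.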

How the data were processed

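The authors pooled RNA from 3 extracts per condition and deposited 1 column of log2 MAS5 signal per array. The submitters' processing notes name MAS5 without a version, and the table holds no detection calls. In linear signal both arrays had a 2% trimmed mean of 500.1. Of 54675 probe sets 62 controls were left out, and the platform's annotation gave 41091 of the others 1 gene, 1801 several and 11721 none. Symbols were updated through the gene identifier for 41037 probe sets. The members and lists were chosen with earlier results of these data known. With 1 array per condition no test was made, and the number of arrays limits precision. All 38 members are accounted for, and genes of the further list were named when among the 3 highest or 3 lowest with both signals at or above the array median. As alternatives, 10 other settings of scaling, low signals, filter and probe set were tried, and 1 more was chosen after seeing the data. Steps were tested on simulated data, with planted changes larger than that of any eligible probe set of a member and the same noise at all signals. That check does not bear on smaller differences. Promoters are from RefSeq (GRCh38.p14). The software was Python 3.11.15 (matplotlib 3.10.9, statsmodels 0.14.6, scipy 1.17.1, pandas 2.3.3, numpy 2.4.6).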

Additional observations from a re-analysis of the deposited data

How the results depend on the processing

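Of 89 group medians and counts under 11 alternatives 75 kept their side of 0 and moved by less than 0.1 on the log2 scale, or kept their count. The median of degradation, translocation and transport genes was -0.034 after median centring, -0.014 after quantile normalization, -0.022 after loess (span 0.2, 3 iterations) and 0.27 by the second-brightest eligible probe set. Over all members the median was between 0.027 and 0.099 under the 11 alternatives. Under the 3 other scalings (centring, quantile and loess) the 4 group medians lay between -0.07 and 0.23. Under centring 1 member, SEC24D, was over 2-fold lower. By the second-brightest probe set, read for 19 members, chaperones had -0.053, sensors 0.073 and the ATF4 branch, with 3 genes, 0.64. By the median over eligible probe sets chaperones had 0.027 and the ATF4 branch -0.11. When all probe sets with the suffix _s_at or _x_at were dropped, sensors had 0.073 and the ATF4 branch 0.051. Without a filter on dim probe sets 1 member had a probe set over 3-fold higher and 2 had one over 3-fold lower. The cause was not tested. Of 278 values of single genes 10 moved by more than 0.32. The signs of 5 members, DNAJB9, SDF2L1, EDEM2, SEC61A1 and SSR1, changed with the scaling. No paired analysis was possible because each condition has 1 array, and no array could be left out. No detection calls were used, so probe sets near background were set apart by the array median only.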

Other observations

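The filter on dim signals left out 10 probe sets of members. The largest differences were -2.93 in the dimmest probe set of SEL1L, from 45.0 to 5.90, -1.90 in the dimmer one of EIF2AK3, from 4.72 to 1.27, and 1.88 in the dimmest one of CREB3L2, from 7.43 to 27.4. Those of SEC61B, SEC24D and XBP1 over 2-fold had -1.49, 1.35 and -1.12. CANX, ASNS and HERPUD1 had -0.52, -0.96 and 0.79 in their dim probe sets, and the second dim one of SEC24D had -0.37. The brighter signal of each of these 10 was under its array's median.

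In the further list of the pathway 4 genes were over 2-fold by the main probe set, and 3 of them are named after their values were seen. CLGN, a calnexin relative of the testis, had 56.9 in Venus and 26.0 in GAS2DN cells, which gives a ratio of 0.457. WFS1, the ER membrane protein wolframin, had 118 and 57.9, a ratio of 0.489. PRKCSH, the beta subunit of glucosidase II, had 47.5 and 95.9, a ratio of 2.02, while its brighter probe set, which ends in _x_at, had 412 and 520.1, a log2 difference of 0.34. The fourth was SEC23B. In CLGN, WFS1 and PRKCSH 1 of the signals was under the array median.

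Among the 13 measured targets of ATF4 and CHOP, PSAT1, an enzyme of serine synthesis, had 8649 and 5972, a log2 difference of -0.53, but -0.15 in its other eligible probe set. PHGDH of the same pathway had 2809 and 2315, a difference of -0.28. CTH, which makes cysteine, had -0.29 by the main probe set and -0.30 by the other. ATF3, a stress transcription factor, had 0.19 and -0.05 in the same order. The choice of these 4 genes was made with the values known.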
